A study of Mus musculus with 10 samples.

Results

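A list of 45 skeletal muscle genes was followed in whole mammary tumors grown from 4T1 cells, a mouse line of triple-negative mammary carcinoma. The genes were picked by name as a readout of muscle of the body wall that may be taken along with a tumor. Of the 45 genes, 43 had a row among the 17864 genes of the count table, 39 had at least 1 count in at least 1 tumor, and 14 passed the filter on low counts. Myh3 and Myog were not analysed here, and Myh8, Myl3, Myoz2 and Myod1 were at 0 in each of the 10 tumors.

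The tumors formed 2 groups of 5, and every line carried Cas9. The sgCon group grew from 4T1 cells with a control guide RNA, and the sgTaz group from cells whose guide RNA cuts Wwtr1. This gene encodes TAZ, a transcriptional coactivator of the Hippo pathway. In the study's methods, female mice of 6 to 8 weeks received 100000 cells in a mammary fat pad. Both BALB/c and SCID hosts are described there, and the labels do not say which carried the tumors sequenced. Host cells carried no guide RNA in either group. The labels do not state that each tumor came from a mouse of its own, and p-values measure the spread between these tumors. Total counts ran from 14753922 to 19595821 in the sgCon group and from 12185383 to 18395558 in the sgTaz group. Wwtr1 itself was at 163 ± 30.2 CPM (SD, n = 5), the count scaled by the TMM-adjusted library total, in sgCon tumors and at 108 ± 19.2 CPM (SD, n = 5) in sgTaz tumors, with ranges that overlap (log2 fold change -0.59, SE 0.151, adjusted p = 0.096 by edgeR's quasi-likelihood test).

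Skeletal muscle fibers contract by sliding thin filaments of actin, tropomyosin and troponin along thick filaments of myosin. Calcium released from the sarcoplasmic reticulum binds troponin C and starts the contraction, and the pump SERCA returns it to the store. Fast and slow fibers use different members of the myosin, troponin and calsequestrin families. Mature fibers hold very large amounts of these transcripts, so a trace of muscle in a piece of tissue can be seen in its RNA. In a whole tumor, fewer muscle cells and less RNA per muscle cell cannot be told apart, and neither can host cells and injected cells.

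The promoters of 3 genes that were high in the same tumors, Acta1, Myh4 and Ckm, are shown beside that of Eno3, which was not. The sequences are the 250 bases before the start of each gene in the RefSeq table of GRCm38.p6, written 5′ to 3′ on the strand of the gene. These starts differ from the gene ends in GENCODE. Capitals mark matches, on either strand, to the E-box CAGCTG and a further E-box, CAGGTG, which are the kind of site that MyoD and myogenin bind, to the TATA box TATAAA, to the MEF2 motif and to the CArG motif of serum response factor.
Acta1, chr8:123894776-123895025, minus strand: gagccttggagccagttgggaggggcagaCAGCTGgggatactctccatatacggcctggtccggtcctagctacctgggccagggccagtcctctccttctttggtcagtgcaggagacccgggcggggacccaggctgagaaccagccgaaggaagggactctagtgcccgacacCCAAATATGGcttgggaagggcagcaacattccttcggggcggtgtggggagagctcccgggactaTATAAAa
Myh4, chr11:67237562-67237811, plus strand: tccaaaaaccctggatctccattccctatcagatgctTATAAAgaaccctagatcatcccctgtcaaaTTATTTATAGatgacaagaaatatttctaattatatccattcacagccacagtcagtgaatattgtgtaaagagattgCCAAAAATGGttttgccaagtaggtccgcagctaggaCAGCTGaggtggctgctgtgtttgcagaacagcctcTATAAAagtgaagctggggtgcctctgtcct
Ckm, chr7:19410844-19411093, plus strand: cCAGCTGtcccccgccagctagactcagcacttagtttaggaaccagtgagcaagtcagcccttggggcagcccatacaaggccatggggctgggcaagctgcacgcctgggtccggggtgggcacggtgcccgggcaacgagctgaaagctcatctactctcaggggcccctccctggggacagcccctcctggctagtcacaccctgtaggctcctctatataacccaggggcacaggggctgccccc
Eno3, chr11:70656926-70657175, plus strand: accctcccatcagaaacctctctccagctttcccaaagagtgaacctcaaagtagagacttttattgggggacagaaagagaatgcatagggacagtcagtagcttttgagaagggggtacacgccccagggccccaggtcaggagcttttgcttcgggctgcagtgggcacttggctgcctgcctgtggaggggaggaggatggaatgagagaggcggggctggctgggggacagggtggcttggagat
The window of Acta1 held CAGCTG from base -221 to -216, a CArG match from -73 to -64 and TATAAA from -7 to -2. Myh4 held CAGCTG from -67 to -62, a CArG match from -104 to -95, a MEF2 match from -182 to -173 that overlaps 1 of its 3 TATAAA matches, and a TATAAA match from -31 to -26. Ckm held 1 match, CAGCTG from -249 to -244, and in Eno3 none of these letters were found. Of the listed genes, 36 had an entry. CAGCTG was in 16 of the 36 (44.4%) and in 12.8% of the windows of all 27025 symbols. The E-box CAGGTG was in 9 of the 36 (25.0%) against 17.1% of all. TATAAA was in 7 (19.4%) against 13.0%, the MEF2 motif in 9 (25.0%) against 3.01%, and the CArG motif in 3 (8.33%) against 1.4%. These shares describe the windows only.

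The listed genes fell into abundant and trace-level ones, a split made after the data were seen. Eno3, Tpm2, Tnni2, Tnnt3 and Des each had a mean of at least 5 CPM over the 10 tumors, and together they made up 86.0% of all counts of the list, of which Eno3 alone was 52.9%. The other 38 genes, which include the genes that define mature fibers such as Acta1, Myh4, Ckm and Tnnc2, were at trace level. Per kilobase of exon, the mean level over the 10 tumors was 56.5 RPKM for Eno3, 11.7 RPKM for Tnni2, 7.40 RPKM for Tpm2, 6.41 RPKM for Tnnt3 and 3.05 RPKM for Des, but 1.00 RPKM for Acta1 and 0.277 RPKM for Myh4. In mature muscle the actin and myosin heavy chain transcripts are among the most abundant, so the label of skeletal muscle was not borne out by the levels of the 5 abundant genes. Tpm2 and Des are also known from smooth muscle.

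**Figure D1:**
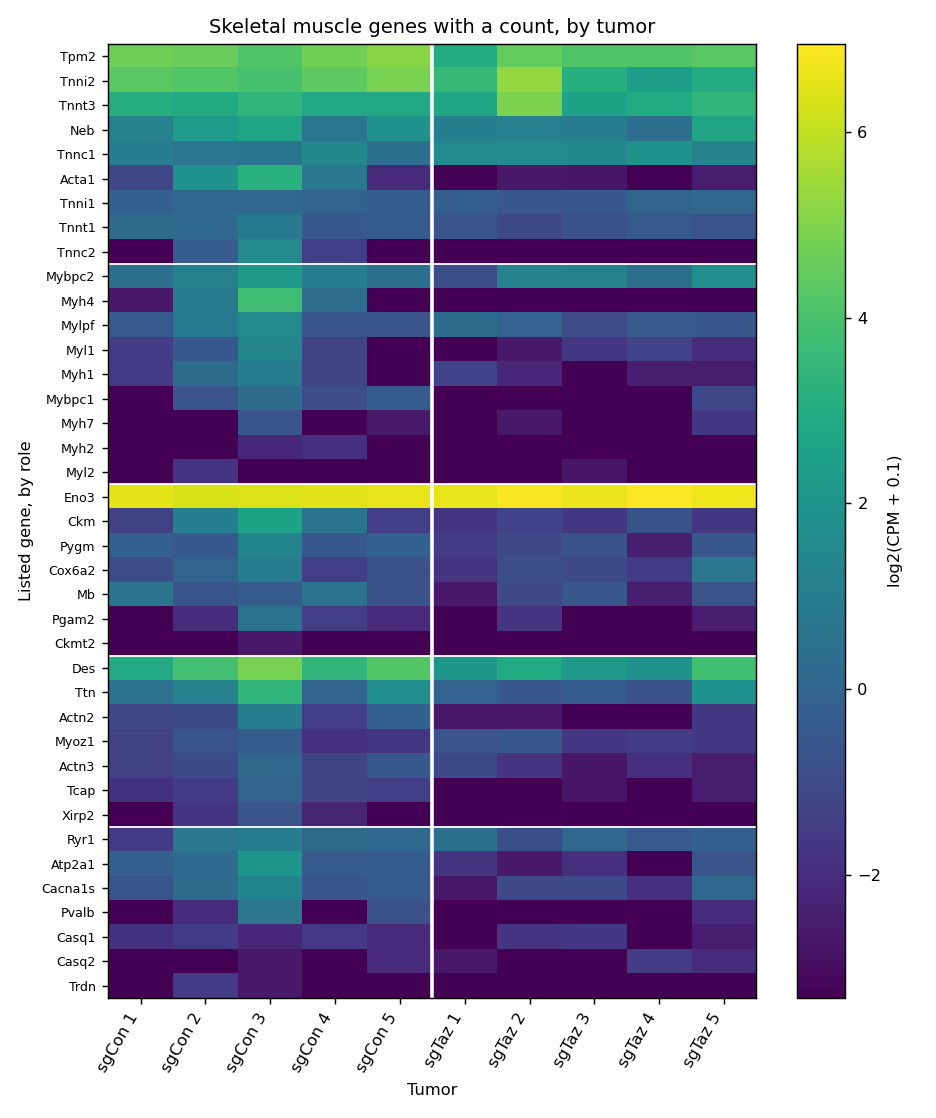
Level of each of the 39 listed genes with a count (rows, by role, ordered by mean CPM within a role) in each tumor (columns), as log2(CPM + 0.1), with the white vertical line between the sgCon and the sgTaz group. Eno3 is bright in all 10 tumors, and most trace-level genes, such as Acta1 and Myh4, are brightest in sgCon tumor 3.

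The trace-level genes were higher in sgCon tumor 3 than in any other tumor, and tumor 2 of that group came next. The 38 genes with a mean below 5 CPM summed to 16.0, 33.9, 88.3, 21.2 and 19.3 CPM in sgCon tumors 1 to 5. In sgTaz tumors 1 to 5 they summed to 12.1, 13.8, 13.1, 11.5 and 24.4 CPM. The groups overlapped through sgTaz tumor 5, and the highest and the lowest tumor were 7.68-fold apart. As a share of all counts, this was 0.00871% in sgCon tumor 3 (exact 95% binomial interval 0.00826% to 0.00918%) and 0.00117% in sgTaz tumor 4 (0.000982% to 0.00137%). Of the 34 trace-level genes with a count, 25 had their highest level in sgCon tumor 3, as did 22.1% of all 17812 genes with a count. The mean log2 sum differed by -1.002 in sgTaz against sgCon tumors, and by -0.60 without sgCon tumor 3, when the mean of the sgCon group went from 35.7 to 22.6 CPM.

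The 5 abundant genes did not share 1 course. Of these, 3 were lower and 2 higher in mean log2 CPM in sgTaz tumors, with a median difference of -0.64. Des was highest in sgCon tumor 3 and, within the sgTaz group, in tumor 5, as the trace-level sum was. Summed, the 5 genes were at 154, 145, 158, 155 and 185 CPM in sgCon tumors 1 to 5, and at 126, 214, 137, 157 and 158 CPM in sgTaz tumors 1 to 5. The difference of the mean log2 sum was -0.0281, and the highest tumor was sgTaz tumor 2. Summed over all 43 genes, the list gave 195 ± 31.6 CPM (SD, n = 5) in sgCon and 173 ± 34.7 CPM (SD, n = 5) in sgTaz tumors, a difference within the spread of either group. Without Eno3 the mean log2 sum of the list differed by -0.757, against -0.178 with it.

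Markers of other tissues differed among the same tumors. The 8 markers of lymph node stroma and high endothelium, such as Ccl21a and Glycam1, of which none was at 0 throughout, summed to 184, 226, 989, 81.5 and 347 CPM in sgCon tumors 1 to 5 and to 48.4, 33.8, 57.1, 63.8 and 527 CPM in sgTaz tumors 1 to 5. Their highest tumor in each group was also the highest for the sum of the trace-level muscle genes. In sgTaz tumors 1 to 4 most of the lymph node sum was Enpp2, with 734, 500, 945 and 694 counts. Ccl21a had 21, 19, 34 and 78 counts there, and Glycam1 0, 0, 0 and 3. Of the 7 markers that passed the filter, 6 had a lower fitted value in sgTaz tumors. Enpp2 had a higher one (log2 fold change 0.18, adjusted p = 0.821, edgeR). Among the 28 trace-level muscle genes with a count in an sgTaz tumor, 14 were highest in tumor 5 of that group, as were 24.4% of all genes with a count there. Some of these rest on very few counts in tumor 5, such as Acta1 and Tcap with 1 each and Pvalb with 2. The largest parts of the trace-level sum in sgTaz tumor 5 were Neb, Ttn and Mybpc2, at 6.33, 3.49 and 3.13 CPM. Myh4 and Tnnc2 had no count there. In sgCon tumor 4 the order differed, since this tumor had the lowest lymph node sum of its group but more Acta1 than tumors 1 and 5. The part of lymph node tissue in these values was not tested.

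**Figure D2:**
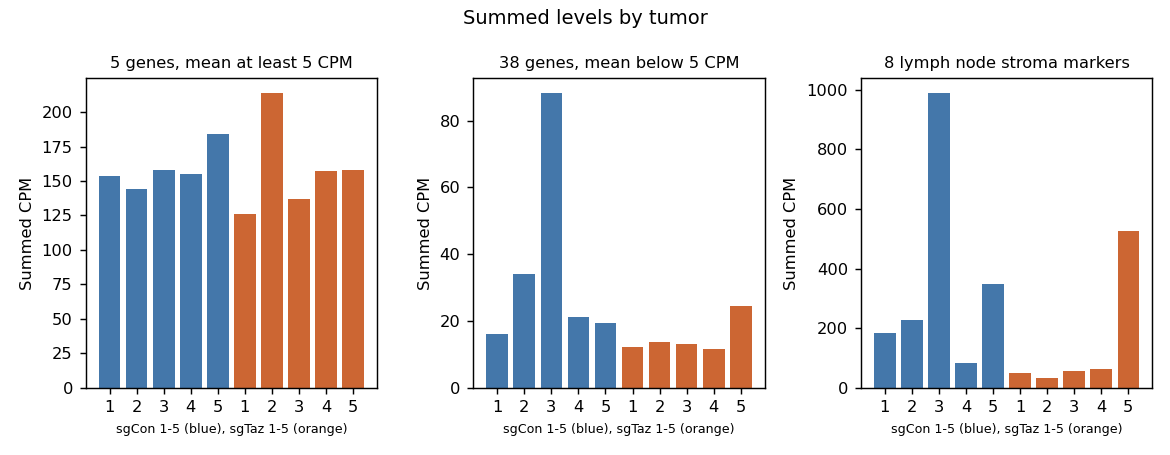
Summed CPM (vertical axes, from 0) in each tumor (bars, sgCon 1 to 5 in blue and sgTaz 1 to 5 in orange) for the 5 abundant listed genes, the 38 trace-level listed genes and 8 lymph node markers. The trace-level sum is 88.3 CPM in sgCon tumor 3 and 24.4 CPM in sgTaz tumor 5, the highest of each group, and the lymph node markers are highest in the same tumors, while the 5 abundant genes are highest in sgTaz tumor 2.

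In the test across all genes, none of the 14 listed genes that passed the filter were called in either direction. edgeR called 1 of 14816 genes higher in sgTaz tumors (0.00675%) and 0 lower (0.0%) at an adjusted p below 0.05. Of the 14, 11 had a lower and 3 a higher fitted value, with a median log2 fold change of -0.50, against -0.02 over all genes tested, of which 53.0% were lower. At an unadjusted p below 0.05 there were 6 of the 14, namely Atp2a1, Des, Tnnt1 and Tpm2 lower and Eno3 and Tnnc1 higher, where 21.8% of all genes were. DESeq2 on the same genes called 1 member lower (Atp2a1) and 1 higher (Eno3), with 3.63% of 14812 genes called lower and 3.6% higher. limma-voom with sample quality weights called 3 lower (Des, Atp2a1 and Tnni2) and 1 higher (Tnnc1), with 5.8% of all genes called lower and 4.63% higher. The median of the 14 is no measure of the whole list, since the fiber-defining genes were below the filter.

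To reach these, DESeq2 was also run on all genes with a count, a choice made after the data were seen. It gave an adjusted p for 27 listed genes and called 6 lower in sgTaz tumors (Acta1, Myh4, Ckm, Atp2a1, Actn2 and Des) and 1 higher (Eno3), with 3.47% of 16075 genes called lower and 3.28% higher. A gene near 0 in one group enters such a fit only through the other, so the number of members called is given as a description. Without sgCon tumor 3, 1 listed gene was called lower, Acta1, and 2.08% of all genes were. Without sgTaz tumor 5, 9 listed genes were called lower and 4.79% of all genes. Acta1 was called in each of the 10 fits that left out 1 tumor, with adjusted p-values of DESeq2 from 2.02e-05 to 0.0029. Atp2a1 was called in each of the 8 of these fits that gave it an adjusted p, and Ckm in 7 of 9. Myh4 was called in 4 of 9, Actn2 in 4 of 6, and Des and Eno3 in 4 of 10 each. Without sgCon tumor 3, Atp2a1, Myh4 and Actn2 got no adjusted p.

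Without any model, all sgTaz tumors lay below all sgCon tumors in 5 of the 39 listed genes with a count (Acta1, Actn2, Atp2a1, Pygm and Tcap), where 2.09% of all 17812 genes with a count did. All sgTaz tumors lay above in 1, Eno3, and in 2.1% of all genes. In these 6 genes the exact two-sided permutation test on log2 CPM gave the smallest p that 5 against 5 tumors allow, 0.00794, without adjustment. At an unadjusted p below 0.05 in this test were 12 listed genes lower and 2 higher, against 10% and 7.83% of all genes with a count.

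**Figure D3:**
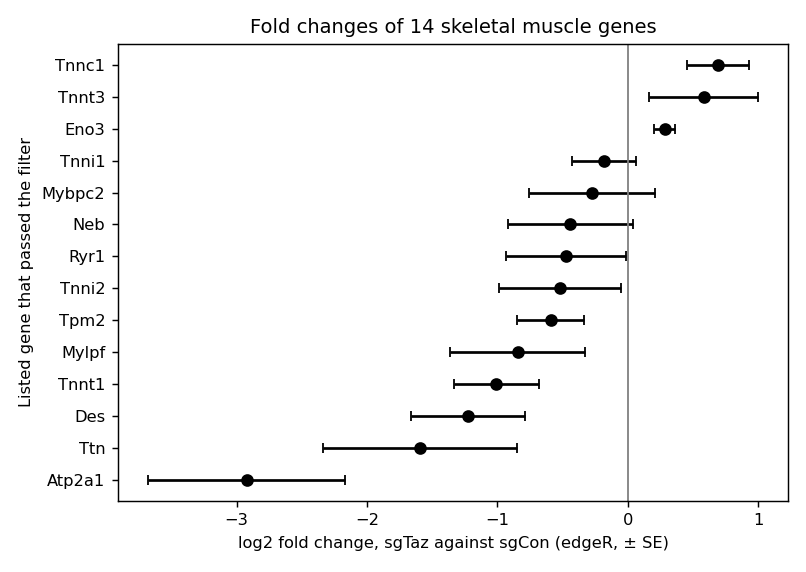
Log2 fold change of sgTaz against sgCon tumors (horizontal axis, edgeR, bars show the SE) for the 14 listed genes that passed the filter on low counts (vertical axis). The points of 11 genes lie left of 0, from Tnni1 at -0.18 to Atp2a1 at -2.92, and Eno3, Tnnt3 and Tnnc1 lie right of it, and no gene passed an adjusted p of 0.05.

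Among the 9 thin filament genes, Acta1 and Tnnc2 were nearly or fully absent from sgTaz tumors, and the abundant troponins Tnni2 and Tnnt3 were not. Acta1 (ENSMUSG00000031972, chr8:123891769-123894751 of mm10), which encodes skeletal alpha-actin, had 6, 74, 151, 29 and 2 counts in sgCon tumors 1 to 5 and 0, 1, 1, 0 and 1 counts in sgTaz tumors 1 to 5. The groups did not overlap, but sgCon tumors 1 and 5 were close to the sgTaz tumors. From the summed counts, Acta1 was 77.8-fold higher in sgCon tumors, with an exact 95% counting interval of 26.3 to 380.0. Without sgCon tumor 3, 111 against 3 counts gave 40.6-fold, with a lower bound of 13.5 for the same interval. DESeq2 on all genes gave an adjusted p = 0.00018. edgeR without a filter gave it an adjusted p = 0.0907. Tnnc2, the calcium-binding troponin C of fast fibers, had 0, 14, 44, 5 and 0 counts in sgCon tumors and none in sgTaz tumors. Against a floor of 3 counts over the sgTaz group this was at least 18.7-fold higher in sgCon tumors, and at least 6.95-fold without tumor 3. Such a bound takes in counting error of the sgTaz group only, and not the spread between tumors. The exact permutation test for Tnnc2 gave p = 0.167. In exons, 592 bases of Tnnc2 are shared with Ube2c on the opposite strand, and reads of the pair cannot be told apart there without strand.

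The troponins Tnni2 and Tnnt3 lie close together on chromosome 7 and encode the inhibitory and the tropomyosin-binding subunit of fast fibers. Tnni2 was at 19.6, 18.0, 15.3, 20.8 and 29.3 CPM in sgCon tumors 1 to 5 and at 11.7, 38.2, 8.68, 5.18 and 7.79 CPM in sgTaz tumors 1 to 5. Tnnt3 was at 8.41, 7.51, 10.7, 7.16 and 6.92 CPM in sgCon and at 6.68, 30.3, 5.89, 7.61 and 10.3 CPM in sgTaz tumors. Both were highest in sgTaz tumor 2, where Acta1 had 1 count, and without that tumor the 4 other sgTaz tumors were below all sgCon tumors in Tnni2. edgeR gave log2 fold changes of -0.52 (SE 0.466, adjusted p = 0.538) for Tnni2 and 0.58 (SE 0.417, adjusted p = 0.431) for Tnnt3. Without sgTaz tumor 2 the values were -1.30 for Tnni2 and -0.09 for Tnnt3, the latter with the sign turned. The 6 markers of 4T1 epithelial cells, such as Krt8 and Epcam, summed to 3366 CPM in sgTaz tumor 2 and to between 1528 and 1980 CPM in the other 4 sgTaz tumors. Over all tumors they were highest in sgCon tumor 1, at 4513 CPM, where Tnni2 and Tnnt3 were at 19.6 and 8.41 CPM, and between 1993 and 2893 CPM in the other 4 sgCon tumors.

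Tpm2, the beta-tropomyosin, was at 25.6, 23.8, 17.7, 27.2 and 35.1 CPM in sgCon tumors 1 to 5 and at 7.77, 22.7, 17.5, 18.0 and 19.9 CPM in sgTaz tumors 1 to 5. It was lowest in sgTaz tumor 1, and sgCon tumor 3, the highest for Acta1, was the lowest of its group. The log2 fold change was -0.59 (SE 0.257, adjusted p = 0.209, edgeR). Tnnc1, the troponin C of slow fibers and heart, had a fold change of the other sign, 0.69 (SE 0.236, adjusted p = 0.141, edgeR), with 1.98, 1.55, 1.497, 2.61 and 1.23 CPM in sgCon and 2.80, 2.97, 2.68, 3.64 and 2.33 CPM in sgTaz tumors. Only sgCon tumor 4 reached into the range of the sgTaz tumors. Tnnt1, the slow troponin T, had 18, 21, 27, 11 and 10 counts in sgCon and 8, 6, 9, 8 and 7 counts in sgTaz tumors, a log2 fold change of -1.01 (SE 0.325, adjusted p = 0.128, edgeR). Tnni1, the slow troponin I, was between 0.581 and 0.951 CPM in all 10 tumors. Neb, the nebulin that runs along the thin filament, was between 1.21 and 6.33 CPM, with the highest values in sgTaz tumor 5 and sgCon tumor 3.

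Of the 12 thick filament genes, 11 had a row and 9 a count, all with a lower mean log2 CPM in sgTaz tumors. Myh4 (ENSMUSG00000057003, chr11:67238029-67260446), the myosin heavy chain of the fastest fibers (type IIb), had 1, 36, 219, 21 and 0 counts in sgCon tumors 1 to 5, and no count in any sgTaz tumor. Over the group this was at least 82.2-fold higher in sgCon tumors with the floor of 3 counts, and at least 21.2-fold without tumor 3. This bound, too, leaves out the spread between tumors, and 219 of the 277 sgCon counts were in tumor 3. DESeq2 on all genes gave an adjusted p = 0.026 and the exact permutation test p = 0.0476. With 1 tumor left out, the adjusted p of DESeq2 was 0.00844 to 0.0903 in 9 fits, and it gave none without sgCon tumor 3. With any 1 sgTaz tumor left out, the exact permutation p was 0.0873 and the log2 difference stayed at -2.94. That p is higher only because fewer tumors allow fewer splits. Myh1, the heavy chain of type IIx fibers, had 4, 23, 30, 6 and 0 counts in sgCon and 5, 2, 0, 1 and 1 counts in sgTaz tumors (exact permutation p = 0.143). Myh2 had 2 counts in sgCon tumor 3 and 3 in sgCon tumor 4, and none elsewhere. Myh7, the slow heavy chain, had 9 counts in sgCon tumor 3 and at most 3 elsewhere, and without that tumor its difference turned from -0.21 to 0.26 on the log2 scale. These heavy chain genes are close copies of each other, so the split of reads among them is uncertain.

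Mylpf and Mybpc2 were the thick filament genes with the highest level per length. Mylpf, the regulatory light chain of fast fibers, had 11, 37, 47, 10 and 8 counts in sgCon and 18, 13, 8, 8 and 8 counts in sgTaz tumors, so that sgCon tumors 2 and 3 were above the other 8. edgeR gave a log2 fold change of -0.84 (SE 0.519, adjusted p = 0.361). Mybpc2, the fast myosin-binding protein C, had 21, 44, 71, 37 and 18 counts in sgCon and 7, 35, 41, 15 and 43 counts in sgTaz tumors (log2 fold change -0.27, SE 0.484, adjusted p = 0.772, edgeR), with a positive value of 0.12 without sgCon tumor 3. Mybpc1, its slow counterpart, had 0, 11, 18, 8 and 10 counts in sgCon tumors and, in sgTaz tumors, 5 in tumor 5 only (exact permutation p = 0.0476). Myl1, a light chain of fast fibers, had 61 counts over the sgCon and 11 over the sgTaz group, 39 of them in sgCon tumor 3. Myl2, the slow and cardiac regulatory light chain, had 5 counts in all.

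The 8 genes of the Z-disc, titin and the intermediate filament were highest in sgCon tumor 3 in all 7 with a count. Des (ENSMUSG00000026208, chr1:75360329-75368579), the desmin filament that links Z-discs, was at 7.63, 14.5, 29.5, 10.6 and 18.0 CPM in sgCon tumors 1 to 5 and at 4.26, 7.62, 4.66, 3.48 and 14.3 CPM in sgTaz tumors 1 to 5. The lowest sgCon tumor was just above the second highest sgTaz tumor, and sgTaz tumor 5 lay within the sgCon range. The log2 fold change was -1.23 (SE 0.438, adjusted p = 0.153, edgeR). Ttn, the giant spring protein titin, had 22, 45, 172, 16 and 46 counts in sgCon and 13, 9, 13, 6 and 48 counts in sgTaz tumors (log2 fold change -1.59, SE 0.747, adjusted p = 0.241, edgeR). Without sgCon tumor 3 its log2 fold change was -0.64, and without sgTaz tumor 5 it was -2.47. In both genes the highest tumor of each group was also the highest in the lymph node markers.

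Tcap, the telethonin cap of titin, had 3, 5, 14, 6 and 4 counts in sgCon and 0, 0, 1, 0 and 1 counts in sgTaz tumors, a ratio of 14.3 from the summed counts (exact 95% counting interval 3.64 to 123.0), and of 9.87 without sgCon tumor 3 (2.36 to 87.7). Actn2, an alpha-actinin of the Z-disc, had 6, 8, 32, 5 and 12 counts in sgCon and 1, 1, 0, 0 and 3 counts in sgTaz tumors. In both, every sgCon tumor was above every sgTaz tumor in CPM (exact permutation p = 0.00794 each). Without sgCon tumor 3 the exact p was 0.00794 for Tcap and 0.0159 for Actn2. Actn3, the alpha-actinin of fast fibers, had 5, 8, 16, 6 and 9 against 6, 3, 1, 2 and 1 counts (exact permutation p = 0.0238). Xirp2, an actin-binding protein of the junctions between fibers and tendon, had 0, 4, 9, 2 and 0 counts in sgCon tumors and none in sgTaz tumors. Myoz1, a binding partner of calcineurin at the Z-disc of fast fibers, was the gene of this role with the difference nearest to 0, with 3 to 11 counts in sgCon and 3 to 9 in sgTaz tumors and a difference of -0.05 on the log2 scale.

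Among the 7 genes of calcium handling, the pump of fast fibers was the one whose groups were apart. Atp2a1 (ENSMUSG00000030730, chr7:126445858-126463108), the SERCA1 pump, had 13, 22, 65, 12 and 10 counts in sgCon tumors 1 to 5 and 3, 1, 3, 0 and 7 counts in sgTaz tumors 1 to 5. All sgCon tumors were above all sgTaz tumors, and the mean CPM was 7.87-fold higher in sgCon tumors, 4.37-fold without tumor 3. The log2 fold change of edgeR was -2.92 (SE 0.755) with an adjusted p = 0.096, the lowest of the 14 genes. It was -2.97 (SE 0.793) with an adjusted p = 0.00989 in DESeq2 on all genes. With 1 tumor left out that p was between 0.00146 and 0.0498 in 8 fits, and DESeq2 gave none without sgCon tumor 1 or 3. With 1 tumor left out of the edgeR fit, the adjusted p was between 0.0635 and 0.233, and the log2 fold change was -2.09 without sgCon tumor 3 and -3.62 without sgTaz tumor 5. In exons, 763 bases are shared with Rabep2 on the opposite strand. Pvalb, the calcium buffer parvalbumin of fast fibers, had 0, 3, 25, 0 and 7 counts in sgCon tumors and 2 counts in sgTaz tumor 5 alone, without any count in sgCon tumor 4 (exact permutation p = 0.167).

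Cacna1s, the voltage sensor of the T-tubule, had 9, 23, 38, 10 and 10 counts in sgCon and 1, 6, 7, 2 and 13 counts in sgTaz tumors, which overlapped through sgTaz tumor 5 only (exact permutation p = 0.0556, and 0.00794 without that tumor). Its exons share 1309 bases with Gm37759 on the opposite strand. Ryr1, the release channel that it opens, was between 0.24 and 1.93 CPM in sgCon and between 0.452 and 1.27 CPM in sgTaz tumors (log2 fold change -0.47, SE 0.459, adjusted p = 0.576, edgeR). Casq1, the fast calsequestrin, had at most 5 counts in a tumor. Casq2, the slow and cardiac calsequestrin, had at most 3 and, as the only gene of this group, a positive difference of 0.32 on the log2 scale (exact permutation p = 0.365). Trdn, which anchors calsequestrin, had 6 counts, all in sgCon tumors 2 and 3.

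**Figure D4:**
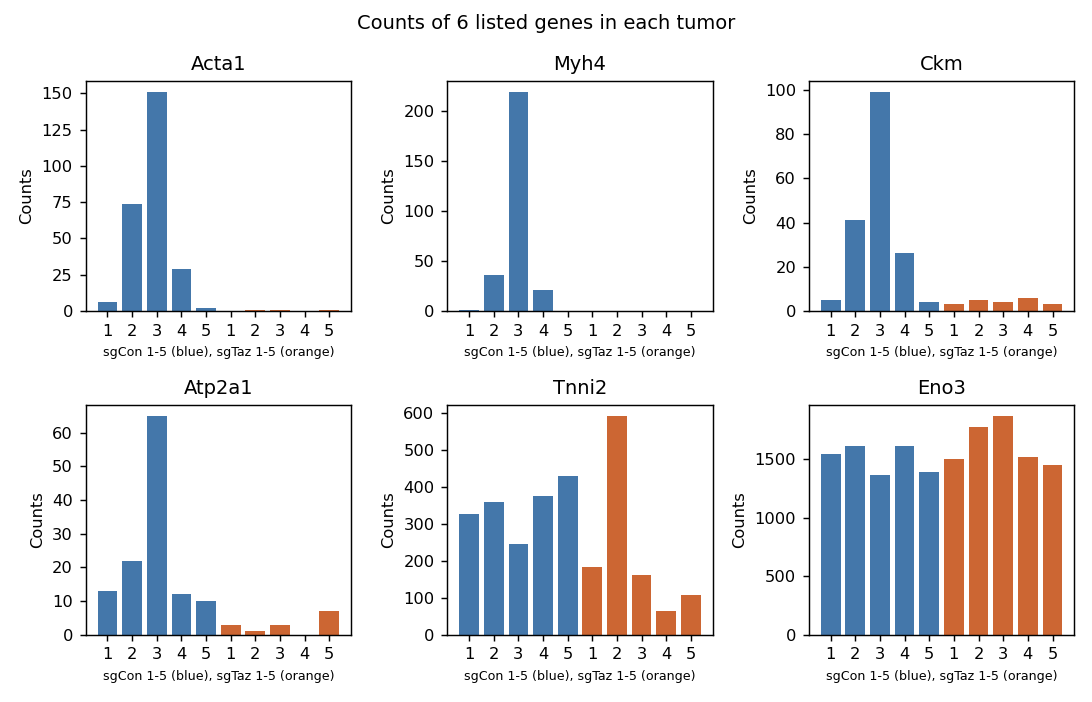
Counts (vertical axes, from 0, each with its own scale) of 6 listed genes in each tumor, with sgCon 1 to 5 in blue and sgTaz 1 to 5 in orange. Acta1, Myh4, Ckm and Atp2a1 peak in sgCon tumor 3 at 151, 219, 99 and 65 counts, Tnni2 peaks in sgTaz tumor 2 at 592 counts, and Eno3 has 1366 to 1873 counts throughout.

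The 7 genes of energy supply and oxygen held both the most abundant gene and some of those with the widest range. Eno3 (ENSMUSG00000060600, chr11:70657202-70662513), the beta-enolase of glycolysis, was at 92.8, 80.6, 85.2, 89.5 and 95.1 CPM in sgCon tumors 1 to 5 and at 95.5, 115, 100.3, 123 and 106 CPM in sgTaz tumors 1 to 5. All sgTaz tumors were above all sgCon tumors, by a small margin, with a log2 fold change of 0.28 (SE 0.0823, adjusted p = 0.11, edgeR) and of 0.30 (SE 0.0924, adjusted p = 0.027) in DESeq2 on all genes. Over all its alternatives the adjusted p of edgeR, DESeq2 and limma was between 0.0254 and 0.25. Ckm (ENSMUSG00000030399, chr7:19404776-19422841), the muscle creatine kinase, had 5, 41, 99, 26 and 4 counts in sgCon and 3, 5, 4, 6 and 3 counts in sgTaz tumors. Here sgCon tumors 1 and 5 were within the range of the sgTaz tumors, and only tumors 2, 3 and 4 were above it. The mean CPM was 7.15-fold higher in sgCon tumors and 3.55-fold without tumor 3 (exact permutation p = 0.0714). DESeq2 on all genes gave an adjusted p = 0.0143. With 1 tumor left out that p was 0.00709 to 0.129 in 9 fits, and DESeq2 gave none without sgCon tumor 1. The exons of Ckm share 451 bases with A930016O22Rik on the opposite strand.

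Pygm, the glycogen phosphorylase of muscle, had 13, 12, 38, 11 and 12 counts in sgCon and 4, 6, 9, 1 and 8 counts in sgTaz tumors, without overlap (exact permutation p = 0.00794), and a mean CPM 2.9-fold higher in sgCon tumors, 1.97-fold without tumor 3. Pgam2, the muscle form of phosphoglycerate mutase, had 31 counts over the sgCon group, of which 21 were in tumor 3, and 4 over the sgTaz group. Cox6a2, the muscle form of a cytochrome c oxidase subunit, had 7, 18, 31, 5 and 7 counts in sgCon and 3, 7, 7, 3 and 22 counts in sgTaz tumors, with sgTaz tumor 5 second among all in CPM only to sgCon tumor 3 (exact permutation p = 0.437). Mb, the oxygen-binding myoglobin, had 24, 11, 11, 24 and 7 counts in sgCon and 1, 6, 11, 1 and 7 counts in sgTaz tumors (exact permutation p = 0.0397). It was highest in sgCon tumors 1 and 4 rather than 3. Ckmt2, the creatine kinase of muscle mitochondria, had 1 count in all.

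Of the 2 transcription factors that set the muscle fate, Myod1 was at 0 in all tumors. From 3 counts of the total, a count of 0 allows a share of up to 1.53e-05% in the deepest and 2.46e-05% in the shallowest tumor, for counting error only. The same limit holds for Myh8, a heavy chain of newborn muscle. Further genes of muscle precursors moved otherwise. Of 10 genes of satellite cells and myoblasts, 6 had a row, 5 had a count and 4 passed the filter, 2 with a lower and 2 with a higher value and none called by edgeR. Their sum was between 47.0 and 92.0 CPM in sgCon and between 36.6 and 71.7 CPM in sgTaz tumors.

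Fast and slow genes of the list were also counted apart. The 14 fast genes were lower in mean log2 CPM in sgTaz tumors in 13 cases, with a median difference of -0.97, and 10 of them were highest in sgCon tumor 3. Of the 8 slow genes, 6 had a count, of which 4 were lower and 2 higher, with a median difference of -0.17, and 2 were highest in sgCon tumor 3. Among the 6, Myh7, Myl2 and Casq2 had at most 9 counts in a tumor. Mybpc1, the slow counterpart of the fast gene Mybpc2, was on neither list, and its difference was -1.74. Over all genes with a count the median difference was -0.03, and 54.6% were lower. The fast genes summed to 40.9 ± 11.95 CPM (SD, n = 5) in sgCon and 30.2 ± 24.0 CPM (SD, n = 5) in sgTaz tumors. The slow genes summed to 3.85 ± 0.699 CPM and 4.30 ± 0.641 CPM (SD, n = 5 each), with Tnnc1 the largest part at means of 1.77 and 2.88 CPM. The difference between the fast and the slow list was not tested.

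The members were then set against Acta1 over the 10 tumors on the log2 CPM scale. Among the 14 genes that passed the filter, 2 rose with Acta1 after adjustment over these 14 relations. For Atp2a1, Pearson's r was 0.86 (permutation p = 0.00021, adjusted 0.00294, Spearman's rho = 0.9, permutation p = 0.00085). For Tnnt1, r was 0.807 (permutation p = 0.00654, adjusted 0.0327, rho = 0.705, permutation p = 0.0268). Eno3 went the other way, with r = -0.787 (permutation p = 0.007, adjusted 0.0327, rho = -0.857, permutation p = 0.00289). Tnni2, Tpm2 and Tnnt3 had r values of 0.286, 0.265 and -0.0325, and none of these passed.

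Over all 38 other listed genes with a count, a choice made after seeing the data, 15 rose with Acta1 after adjustment over the 38 relations and 1 fell, Eno3. By Spearman's rho, 10 rose and 2 fell, Eno3 and Tnnc1 (rho = -0.784, permutation p = 0.00954, adjusted 0.033). Myh4 was the closest, with r = 0.972 (permutation p = 0.00022, adjusted 0.00418, rho = 0.89, permutation p = 0.00022), followed by Tnnc2, Xirp2 and Ckm at 0.955, 0.951 and 0.945. The median r was 0.686 in the 33 trace-level genes and 0.265 in the 5 abundant ones. The tumors farthest from the median of Acta1 were sgCon tumors 3 and 2. Without both, the median over all genes went from 0.666 to 0.431, and no relation passed the adjustment over the 8 tumors left. Here r was 0.925 for Myh4, 0.83 for Tcap, 0.791 for Ckm, 0.669 for Atp2a1 and -0.643 for Eno3, but 0.447 for Myh1 and 0.388 for Tnnt1. The value of Myh4 rests mainly on sgCon tumor 4, with 21 counts, beside 1 count in sgCon tumor 1 and none elsewhere. Ckm had 26 counts in sgCon tumor 4 and at most 6 in the others left. Tnnc2 and Xirp2, both at 0.869, then had counts in 1 of the 8 tumors, so that their relation could not be tested. With the group means taken off, 1 of the 38 passed. Then r was 0.973 for Myh4 and 0.643 for Atp2a1, but 0.549 for Tnnt1 and -0.468 for Eno3.

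**Figure D5:**
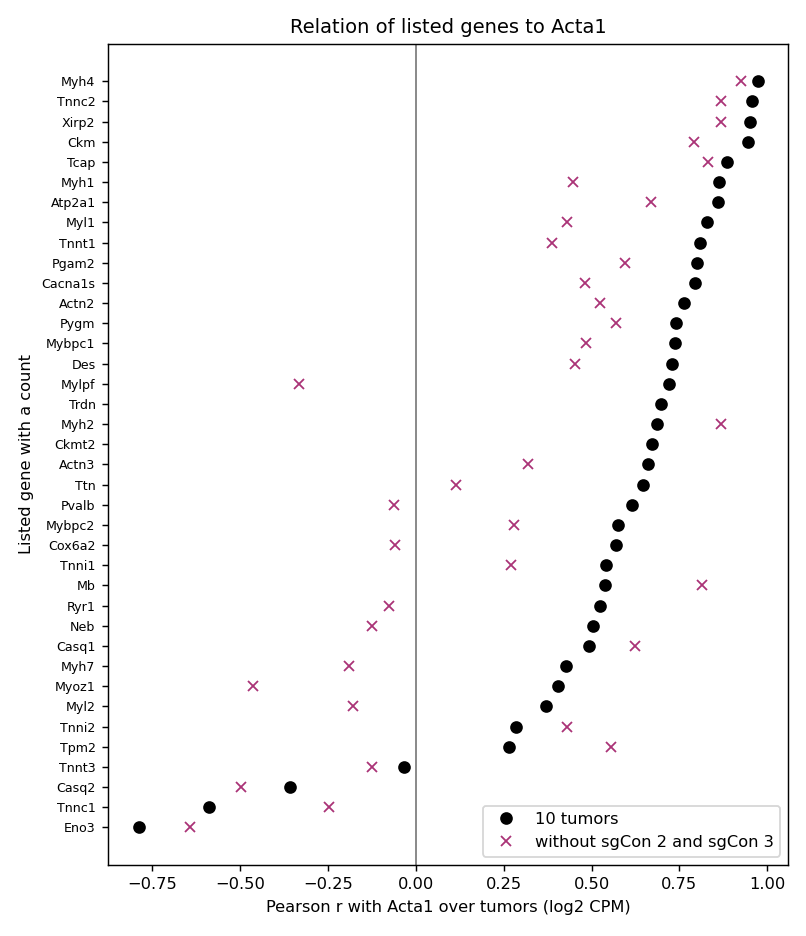
Pearson's r with Acta1 over the tumors (horizontal axis, log2 CPM) for the 38 other listed genes with a count (vertical axis), over all 10 tumors (black points) and without sgCon tumors 2 and 3 (crosses, missing for Trdn and Ckmt2, which had no count left). Myh4, Tnnc2, Xirp2 and Ckm stand highest at 0.972 to 0.945, Eno3 lowest at -0.787, and most crosses lie closer to 0.

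The genes outside the list were also ranked by their likeness to Acta1. Among 14054 other genes with a mean of at least 1 CPM that passed the filter, the 10 with the highest Pearson's r over the 10 tumors were Fuca1, Ssu72, Taf8, Dusp12, Prkag1, Rps15a, Rps27, Rpl35a, Washc3 and Sf3a3, with r from 0.916 to 0.88. Their range was narrow beside that of Acta1. Fuca1, a lysosomal fucosidase, went from 48.2 CPM in sgTaz tumor 1 to 73.1 CPM in sgCon tumor 3, and the ribosomal protein gene Rps27 from 690.0 to 1552 CPM. These values are a description, as the genes were chosen by r itself. Muscle genes like Acta1's closest members would not enter this ranking, since those did not pass the filter on low counts. Myh4 and Ckm had means of 1.67 and 1.17 CPM, and Tnnc2 and Xirp2 were also below the floor of 1 CPM. Of the other muscle genes described next, Sln, an inhibitor of the SERCA pump, had r = 0.96, and Lmod2 and Csrp3, of the sarcomere, 0.912 and 0.885. These 3 were picked after their values were seen and have few counts, with 0, 2, 3, 1 and 0 in sgCon tumors 1 to 5 for Sln and none in sgTaz tumors.

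Other muscle genes, which are not on the list of 45, were not called by edgeR in any of 5 sets. Of 26 sarcomere genes, 7 passed the filter, 4 lower and 3 higher, with a median log2 fold change of -0.13. The rest were below the filter, trace-level muscle genes such as Csrp3 among them, so this median does not describe the set, and 10 of the 26 were highest in sgCon tumor 3. Of 17 genes of the sarcoplasmic reticulum and membrane, 8 passed, 5 lower and 3 higher (median -0.09). Of 12 genes of muscle metabolism, 5 passed, 1 lower and 4 higher (median 0.03). The medians of these sets, too, leave out the genes below the filter, such as Sln and Ampd1, and do not describe the sets. At the neuromuscular junction 1 of 7 passed, Chrnb1, which was higher at 0.13. In DESeq2 on all genes, Scn4a and Ampd1 were called lower in these sets and 1 gene of the satellite cells and myoblasts higher. Scn4a, the sodium channel of skeletal muscle, had 27, 44, 123, 12 and 82 counts in sgCon and 2, 0, 4, 0 and 7 counts in sgTaz tumors (log2 fold change -4.31, adjusted p = 0.0824, edgeR). Unlike Acta1, it was high in sgCon tumor 5 and low in tumor 4, and its CPM ordered the 5 sgCon tumors as the lymph node sum did. Ampd1, the AMP deaminase of muscle, had 12, 19, 63, 6 and 17 counts in sgCon and 0, 1, 0, 0 and 7 counts in sgTaz tumors.

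Markers of further tissues were set beside the muscle genes, and edgeR called none of them. DESeq2 on all genes called 3 of them lower, Myl4 of the heart muscle list, Krt14 of the epidermis list and Krt19 of the list of 4T1 epithelial cells. The 8 heart muscle genes, of which 6 had a row, summed to between 132 and 227 CPM in sgCon and between 97.7 and 223 CPM in sgTaz tumors, mostly through Tnnt2, while Myh6 had 3 counts in all. The 12 genes of smooth muscle and pericytes were between 377 and 628 CPM in sgCon tumors, lowest in tumor 3, and between 417 and 639 CPM in sgTaz tumors. The 7 adipocyte genes were between 76.5 and 116 CPM in sgCon tumors, also lowest in tumor 3, and at 71.0, 53.9, 207, 182 and 206 CPM in sgTaz tumors 1 to 5. The 6 of 8 epidermis genes with a row were between 125 and 182 CPM in sgCon and between 34.3 and 126 CPM in sgTaz tumors, mostly through Krt14. In sgCon tumors Krt14 had 1753 to 2818 counts, and Krt5 20 to 781, highest in tumor 3. The sum is therefore no measure of skin in these tumors. The 6 Schwann cell genes were highest in sgCon tumor 3, at 142 CPM, against 69.1 to 91.9 CPM in the other 9. The 5 brown fat genes ranged from 10.8 to 127 CPM, nearly all from Dio2, and the 5 tendon genes from 47.9 to 81.0 CPM with Tnmd at 0. The part of these tissues in the muscle values was not tested.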

How the data were processed

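The authors sequenced RNA extracted with Trizol from 10 whole tumors on an Illumina HiSeq. Per the study's methods, reads were mapped to mm10 with the STAR two-pass algorithm and GENCODE annotation and counted per gene with featureCounts of Subread. What they deposited is a table of raw read counts for 17864 genes, not normalized. The strand setting of the counting is not given in the sources used here. Another 5 columns of the table match no label and entered no step. Tumors were grouped by the sample labels and column names.

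Identifiers were matched to GENCODE M21 (17860 found), which gave symbols, positions and exon lengths. The main test was the quasi-likelihood test of edgeR 4.0.16 under R 4.3.3, with TMM factors, filterByExpr by group and a Benjamini-Hochberg adjusted p below 0.05, beside DESeq2 1.42.0 and voom of limma 3.58.1. Python 3.11.15 served for the rest (scipy 1.17.1 for tests and intervals, pandas 2.3.3 for tables, numpy 2.4.6 for permutations, and matplotlib 3.10.9). CPM used the TMM-scaled totals, and log2 CPM a prior count of 2. Single genes were tested by exact two-sided permutation, and relations with Acta1 by 100000 permutations, adjusted over the genes related. A share of counts has an exact 95% binomial interval, for counting error only. With the lowest total of 12185383 counts, 3 counts are 2.46e-05%.

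The 45 members, the marker lists and their roles were chosen with earlier results of these data known. Values in every tumor were given for the 2 genes of each role with the highest mean RPKM (Tnni2, Tpm2, Mylpf, Mybpc2, Eno3, Cox6a2, Des, Tcap, Atp2a1 and Pvalb) and for any gene called by edgeR. All other genes given by tumor, Acta1 among them, were chosen after their values were seen. Outside the list, the 10 genes with the highest r with Acta1 and a mean of at least 1 CPM were named, and Wwtr1. Simulated counts for the comparison of sgTaz with sgCon (17864 genes, 14910 tested, 200 changed) gave 95% of the changed genes recovered by edgeR, with 12 false among 202 calls, 93.5% by DESeq2 (33 of 220) and 95.5% by limma-voom (14 of 205). The changed genes were drawn from those that passed the filter, and no outlying tumor was simulated. Their folds were larger than most of those fitted for the listed genes. These shares are therefore no measure of the power to call a listed gene.

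Alternatives were DESeq2, limma-voom, RLE and upper-quartile factors, TMM factors without the muscle genes, no filter, at least 10 counts in every tumor, the replicate block, each tumor left out, a prior count of 0.5 and plain totals. DESeq2 on all genes with a count, the split of the list at 5 CPM and the relations over all genes with a count were chosen after seeing the data. Tumors of a group differed by far more than sampling noise (chi-square per degree of freedom at least 6.45), so each was counted as 1 sample.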

Additional observations from a re-analysis of the deposited data

Results flagged for a closer look

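In groups of 5 tumors, a tumor was marked when its gap to the nearest other, divided by the range of the group, was above 0.71. Over 38 such groups (the 14 genes that passed the filter and 5 sums, in both groups), chance gives about 1.9, and 6 were found.

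Tpm2 in sgTaz tumor 1 was at 2.98 on the log2 CPM scale, below the other 4 at 4.14 to 4.51. Ttn in sgTaz tumor 5 was at 1.86 (1.855), above the other 4 at -0.71 to -0.07. Atp2a1 in sgCon tumor 3 was at 2.06 (2.063), above the other 4 at -0.34 to 0.29. The log2 sum of the trace-level genes was 4.61 (4.607) in sgTaz tumor 5, against 3.52 to 3.78 in the others of that group. The log2 sum of the fast genes was 6.19 (6.187) in sgTaz tumor 2, against 3.95 to 4.53, and nearly all of it is Tnni2 and Tnnt3. The log2 sum of the slow genes was 2.44 (2.439) in sgTaz tumor 4, against 1.93 to 2.05. Smooth muscle and pericyte markers were lowest among sgTaz tumors in tumor 1 (417 CPM), lymph node markers were highest among them in tumor 5 (527 CPM), and epithelial markers in tumor 2 (3366 CPM). Epithelial markers were higher still in sgCon tumor 1 (4513 CPM), where the fast genes summed to 32.1 CPM, against 72.8 CPM in sgTaz tumor 2. The part of smooth muscle and lymph node tissue in these values was not tested.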

How the results depend on the processing

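The count of genes called depended on the tool. Against 1 gene higher and 0 lower in the edgeR fit, DESeq2 gave 533 and 537, limma-voom 686 and 860, at least 10 counts in every tumor 4 and 1, and no filter 0 higher. With 1 tumor left out, 0 to 42 genes were higher and 0 to 130 lower, and 0 listed genes were called in any of these fits. Listed genes called were 1 higher and 1 lower in DESeq2 (3.6% and 3.63% of all genes) and 1 and 3 in limma-voom (4.63% and 5.8%). In DESeq2 on all genes they were 1 and 6 (3.28% and 3.47% of all genes). In the latter, leaving out 1 tumor gave 1 to 9 lower, with 0.928% to 5.01% of all genes. It gave 0 to 2 higher, with 147 to 819 of all genes. Without sgCon tumor 3, 1 was lower (2.08% of all genes), and without sgTaz tumor 5, 9 were (4.79%). The median log2 fold change of the listed genes was -1.39 without a filter, over 39 genes instead of 14, and -0.71 to -0.28 with 1 tumor left out. The difference of the summed list, -0.18, was -0.76 without Eno3, -1.002 in the trace-level genes and -0.28 to -0.09 with 1 tumor left out. The 2 genes that rose with Acta1 became 0 without the 2 tumors farthest from its median, 1 with the group means taken off and 15 over all listed genes with a count.

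Signs turned when 1 tumor was left out in Tnnt3 (-0.0936 to 0.758, below 0 without sgTaz tumor 2), Mybpc2 (-0.536 to 0.124, above 0 without sgCon tumor 3), Myh7 (-0.469 to 0.255, above 0 without sgCon tumor 3) and Myoz1 (-0.217 to 0.153, above 0 without sgCon tumor 2 or 3 or sgTaz tumor 3, 4 or 5). Myoz1, near 0, was also at 0.0315 with plain totals. The cause was not tested.

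The replicate number did not pair the tumors, with correlations of same-numbered deviations from -0.243 to 0.221. As a block it gave 0 genes higher, 0 lower and a median of the listed genes of -0.57. Depth limits the trace-level genes, of which 25 with a count were below the filter.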
